A study of Caenorhabditis elegans with 2 samples.

Results

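Nuclear hormone receptor genes were examined as places where the SUMO ligase GEI-17 was found on chromatin. The members were the 269 protein-coding genes of the Caenorhabditis elegans annotation whose name starts with nhr-, of 19973 protein-coding genes in all. GEI-17 was mapped by ChIP-seq, in which chromatin bound to a protein is precipitated with an antibody and sequenced. Young adults of mixed sex were used whole at 64 h of age, after synchronization as starved L1 larvae, as a single group with biological replicates 4 and 5. Both replicates were strain OP572. Its animals are mutant for unc-119 (allele tm4063) and carry the integrated array wgIs572, which holds gei-17::TY1::EGFP::3xFLAG together with a rescuing unc-119(+) copy. The tagged protein was precipitated with an antibody to GFP. The signal is therefore that of the transgene's product, averaged over all tissues of the animal. No untreated, untagged or other condition was analysed here, so the nhr genes are set beside all protein-coding genes, with no test between conditions.

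Nuclear hormone receptors are transcription factors that bind DNA through a zinc finger domain and whose activity can be switched by small lipophilic ligands. Nematodes have a greatly expanded family, most of it derived from an ancestor like vertebrate HNF4 and much of it lying in clusters on chromosome V. Known members control fat storage, propionate and methionine metabolism, moulting and the choice between growth and dauer arrest. GEI-17 is an E3 ligase of the PIAS family that attaches the small protein SUMO to substrates, and transcription factors, NHR-25 among them, are known SUMO substrates.

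Of the 269 nhr genes, 6 had a summit in their promoter window that passed IDR: nhr-68, nhr-47, nhr-255, nhr-48, nhr-1 and nhr-35. IDR, the irreproducible discovery rate filter, rests on agreement between replicates. The regions that passed were the 1030 highest of the list called on both replicates together. The promoter window ran from 1000 bp upstream to 200 bp downstream of the gene start, and a summit is the single position of highest enrichment that the authors deposited for a region. The sequences under 5 of these summits are shown because these windows rank highest of the family and differ in composition. Each is 201 bases of build ce11 (WBcel235, RefSeq sequence), the summit with 100 bases on each side, on the forward strand, which is the strand of these genes. Capitals mark GAGAGA or its complement TCTCTC, except for nhr-255, where they mark the part of a leucine tRNA gene inside the window.
nhr-68, chrV:11572931-11573131: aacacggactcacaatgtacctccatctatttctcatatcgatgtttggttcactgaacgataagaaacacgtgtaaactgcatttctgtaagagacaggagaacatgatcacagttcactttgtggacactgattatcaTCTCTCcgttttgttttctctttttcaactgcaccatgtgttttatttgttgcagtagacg
nhr-255, chrX:15741923-15742123: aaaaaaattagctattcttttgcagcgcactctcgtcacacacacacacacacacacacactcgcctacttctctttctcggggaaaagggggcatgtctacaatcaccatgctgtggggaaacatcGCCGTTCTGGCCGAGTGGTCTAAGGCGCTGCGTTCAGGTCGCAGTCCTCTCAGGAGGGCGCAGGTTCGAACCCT
nhr-48, chrX:15707505-15707705: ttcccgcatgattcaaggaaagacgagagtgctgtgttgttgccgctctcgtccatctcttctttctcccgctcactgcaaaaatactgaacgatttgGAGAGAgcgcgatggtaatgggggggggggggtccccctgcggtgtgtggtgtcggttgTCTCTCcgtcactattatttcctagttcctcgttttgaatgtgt
nhr-1, chrX:17513598-17513798: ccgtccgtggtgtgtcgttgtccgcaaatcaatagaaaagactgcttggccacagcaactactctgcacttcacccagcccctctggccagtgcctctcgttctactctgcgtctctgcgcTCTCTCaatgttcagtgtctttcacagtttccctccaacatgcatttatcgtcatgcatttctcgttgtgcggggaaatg
nhr-47, chrV:5505136-5505336: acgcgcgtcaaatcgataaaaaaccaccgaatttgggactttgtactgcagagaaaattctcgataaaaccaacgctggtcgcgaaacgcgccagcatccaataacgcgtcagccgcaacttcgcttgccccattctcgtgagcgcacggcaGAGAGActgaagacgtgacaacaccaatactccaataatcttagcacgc

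The stretches are not alike. The nhr-48 stretch holds a run of 13 G just beside the summit. The nhr-255 stretch holds an alternating CA run of 24 bases and then the start of the tRNA gene. GC content within 50 bp of the summit was 39.6% at nhr-68 and ran from 53.5% at nhr-1 to 57.4% at nhr-48 in the other 4 shown. The median was 54.0% for the 6 nhr genes that passed and 49.5% for all 598 protein-coding genes that passed.

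A pooled candidate is a summit in the list called on both replicates together, before the IDR filter. A pooled candidate lay in the promoter window of 93 nhr genes (34.6%, exact 95% interval 28.9 to 40.6%), beside 30.9% of all protein-coding genes (6175). The 6 that passed IDR were 2.23% of all nhr genes (0.823 to 4.79%), beside 2.99% of all protein-coding genes (598). Among genes with a pooled candidate they were 6.45% of the nhr genes (2.40 to 13.5%), beside 9.68% of all protein-coding genes. Each of these background shares lies inside the interval of the nhr share, so the family as a whole stood near the background. The intervals are of Clopper-Pearson type and cover the counting of genes only.

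The remaining 176 nhr genes had no pooled candidate. Of these, 47 had a candidate in at least 1 replicate list, 4 of them in both, none above 45.4 in replicate 4 or 27.5 in replicate 5, and 129 had none in any list. A gene without a candidate is one whose window held no summit among the 30000 deposited per list, and the depth of the libraries is not known here. The height of a summit is a signal value deposited by the authors on a scale that is not stated, so heights are compared only within a list. Pooled heights of the 93 nhr genes ran from 20.7 to 259, with quartiles of 30.2, 39.5 and 58.5. Over the 6175 protein-coding genes they ran from 20.3 to 2794, with quartiles of 29.5, 41.2 and 63.5. The median nhr gene stood at the 46.8th percentile of protein-coding genes with a candidate. The middle of the family thus lay close to the middle of protein-coding genes with a candidate. Its highest gene stood at the 98.4th percentile, and the maxima come from groups of unlike size.

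**Figure D1:**
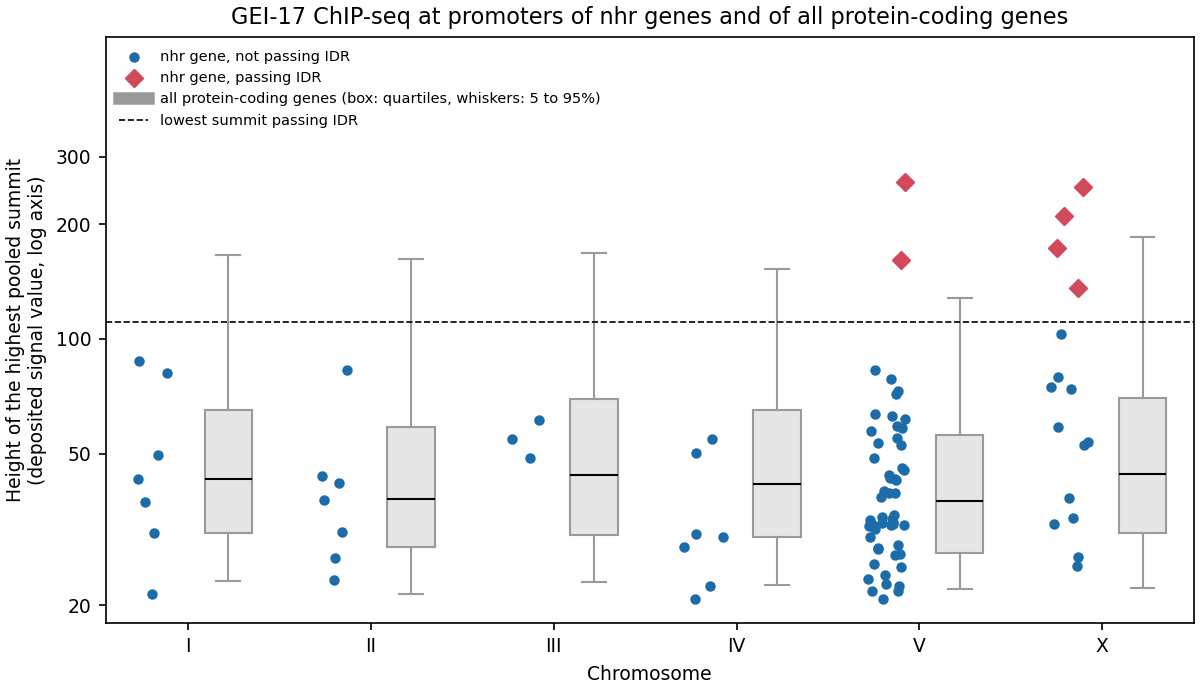
Height of the highest pooled summit (deposited signal value, log axis) in the promoter window of each of the 93 nhr genes with a candidate, by chromosome, with boxes for all protein-coding genes (quartiles, whiskers from 5 to 95%). The dashed line is the lowest summit that passed IDR (110.4). Of the 6 nhr genes above it, 4 are on X and 2 on V.

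nhr-68, on V at 11573440 to 11575709, had the highest summit of the family. Its product acts with NHR-10 in switching on a propionate breakdown route when propionate persists. The summit had a height of 259 in the pooled list, which ranked 98 among 6175 genes, and lay 409 bp upstream of the gene start. In replicate 4 the height was 106 (rank 131 of 6535 genes) and in replicate 5 it was 154 (rank 97 of 6096). The replicate summits lay 405 and 406 bp upstream, so the position was the same to within a few bases. The region ran from 11572919 to 11573196. The gene H12C20.7 starts on the opposite strand 41 bp from this summit, nearer than nhr-68 does, and the summit lies in both windows.

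nhr-48 and nhr-255 are on X, on the same strand, with starts 34397 bp apart. nhr-48, at 15708213 to 15716875, belongs to the subfamily of the vertebrate vitamin D and pregnane X receptors. Its summit, 608 bp upstream, had a pooled height of 209.5 (rank 166), and the heights were 80.1 in replicate 4 and 132 in replicate 5. It was the only pooled candidate in the window, and no other annotated gene start or non-coding gene of the kinds searched lay within 200 bp of it. nhr-255, at 15742610 to 15744298, had a pooled height of 250.5 (rank 111), 124 in replicate 4 and 131 in replicate 5, at 587 bp upstream. This summit lay 27 bp from the tRNA-Leu gene ZK678.t1 (15742050 to 15742133) and 11 bp from the non-coding RNA gene ZK678.11 on the reverse strand. Both nhr-48 and nhr-255 were thus among the highest summits of each replicate alone, but at nhr-255 the nearest annotated gene to the summit is not the receptor.

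nhr-1, on X at 17514063 to 17528197, is among the longer genes of the family. Its summit lay 365 bp upstream with a pooled height of 173 (rank 260), 76.2 in replicate 4 and 105 in replicate 5. A lower candidate of 57.0 lay in the same window. nhr-35, on X at 4532691 to 4537546, had the lowest of the 6 heights, 136 (rank 415), at 398 bp upstream, and no other candidate in its window. Its height was 69.4 in replicate 4 (rank 363) and 67.005 in replicate 5 (rank 594). The replicate 5 value lies just under the 68.9 that marks the 1030 highest summits of replicate 5, so nhr-35 was among the highest in the pooled list and in replicate 4 but not in replicate 5.

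nhr-47, on V at 5505253 to 5509956, differed from the other 5 in where its summit lay. The summit was 17 bp upstream of the gene start, with a pooled height of 161 (rank 312), 73.7 in replicate 4 and 90.2 in replicate 5. It falls inside the non-coding RNA gene C24G6.10 on the opposite strand, and 189 bp from a further one, C24G6.12. The divergent gene dnj-19, which encodes a DnaJ protein of the chaperone system, starts 379 bp from the summit and has it in its own window. nhr-48, nhr-1 and nhr-35 had no such neighbour. Which of the neighbouring genes a summit belongs to cannot be told apart from these files.

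**Figure D2:**
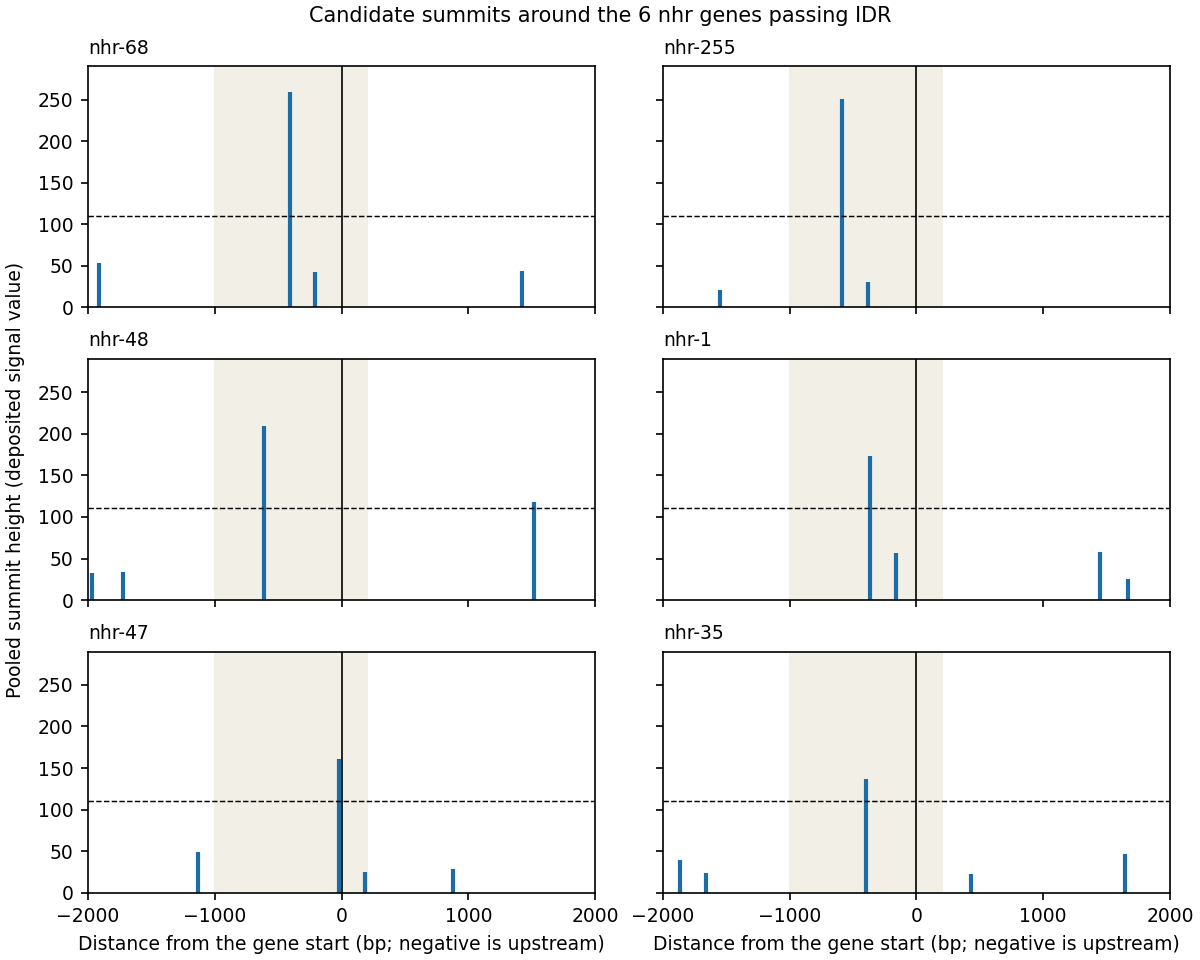
Pooled candidate summits within 2000 bp of the start of each nhr gene that passed IDR (vertical lines, height in deposited signal value) against distance from the start in bp, with upstream negative. The shaded band is the promoter window and the dashed line the lowest summit that passed IDR (110.4). Each window holds 1 summit above the line, and nhr-48 has a second one 1519 bp inside the gene.

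Over the whole family, sharing of a summit with a neighbour was uncommon. The highest summit also lay in the window of another protein-coding gene for 7 of 93 nhr genes (7.53%), beside 26.9% of all protein-coding genes with a candidate. The nhr start was the protein-coding start nearest to the summit for 89 of 93 (95.7%), beside 82.4%, and the exceptions were nhr-68, nhr-142, nhr-80 and nhr-213. Among the genes that passed, 2 of 6 nhr genes shared the summit (nhr-68 and nhr-47), beside 41.97% of all. No pair of nhr genes shared a highest summit. A tRNA gene lay within 200 bp of the summit at nhr-255 and nhr-193, which is 2.15% of the 93, beside 1.18%. Another non-coding RNA gene lay as near at 9 of 93 (9.68%), beside 8.55%.

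By chromosome, 4 of the 6 nhr genes that passed were on X and the other 2 on V. X holds 23 nhr genes, of which 16 had a pooled candidate (69.6%, exact interval 47.1 to 86.8%), beside 42.3% of all protein-coding genes on X. In replicate 4 alone 15 of the 23 had a candidate (65.2%), beside 44.6%, and in replicate 5 alone also 15 (65.2%), beside 39.3%. Of the 16 with a pooled candidate, 4 passed IDR (25%, 7.27 to 52.4%), beside 11.9% of the protein-coding genes on X with a candidate. Their median height was 66.2, beside 44.3 for all protein-coding genes on X. The interval of the pooled candidate share lies above its background, and that of the share passing IDR includes its background. Off X, the 77 nhr genes with a candidate had a median height of 37.8, beside 40.6 for all protein-coding genes off X.

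V holds 167 of the 269 nhr genes. A candidate was found at 53 of them (31.7%, exact interval 24.8 to 39.4%), beside 26.0% of all protein-coding genes on V. Of these 53, 2 passed IDR (3.77%, 0.460 to 13.0%), beside 6.23%, and the median height was 34.4, beside 37.7. On the arms of V, the outer 30% on each side, 42 of 125 nhr genes had a candidate (33.6%), beside 27.4% of the protein-coding genes there. In the centre of V 11 of 42 had one (26.2%), beside 24.2%. On both the arms and the centre 1 nhr gene passed, nhr-47 and nhr-68 in that order. Of the protein-coding genes with a candidate, 37 of 784 passed on the arms and 44 of 516 in the centre. No nhr gene passed on the other autosomes, where the highest were nhr-69 on I (87.7, of 7 with a candidate among 23), nhr-119 on II (83.0, 7 of 15), nhr-239 on III (61.1, 3 of 8) and nhr-105 on IV (54.7, 7 of 33). Of all protein-coding genes, 33.3% had a candidate on I, 28.8% on II, 35% on III and 25.7% on IV. Of those with a candidate, 10.4% passed on I, 9.35% on II, 10.4% on III and 10.7% on IV. With so few nhr candidates there, the absence of a gene that passed is a description only.

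Position in a cluster was examined on and off chromosome V. Another nhr start lay within 10 kb of 150 nhr genes, 121 of them on V. Of these clustered genes 45 had a candidate (30%), 1 passed IDR (nhr-68), and the median height was 34.4. Of the 119 that stood apart, 46 of them on V, 48 had a candidate (40.3%), 5 passed IDR and the median height was 46.2. The gap between clustered and other nhr genes was not seen within V, where 40 of 121 clustered genes had a candidate (33.1%), beside 13 of 46 that stood apart (28.3%). Their median heights on V were 38.9 and 32.8 in that order, and 1 gene passed in each (nhr-68 clustered, nhr-47 apart). Off V, 5 of 29 clustered genes had a candidate (17.2%), beside 35 of 73 that stood apart (47.9%), with median heights of 26.6 and 50.1. All 16 nhr genes on X with a candidate stood apart, among them the 4 on X that passed IDR. The gap off V thus includes the higher candidate share of X and was not separated from it. How the authors placed reads that match several gene copies is not given in the sources used here.

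Below the threshold, no nhr gene lay between 103 and the 110.4 at which summits passed. The 10 highest nhr genes that did not pass were nhr-17 (103), nhr-69 (87.7), nhr-119 (83.0), nhr-142 (82.8), nhr-49 (81.4), nhr-3 (79.5), nhr-58 (78.7), nhr-40 (74.96), nhr-32 (73.8) and nhr-114 (73.2). nhr-17 on X was just outside: its summit, 525 bp upstream on the reverse strand, ranked 680, with 48.6 in replicate 4 and 68.6 in replicate 5 (there 679 bp upstream), under the limits of 54.7 in replicate 4 and 68.9 in replicate 5. nhr-49, a regulator of fat metabolism and the starvation response, had 40.4 in replicate 4 and 48.7 in replicate 5. nhr-69, which acts with TGF-beta signalling in insulin secretion, had 29.0 in replicate 4 and 58.9 in replicate 5. nhr-40, with a known part in muscle development, had 48.8 in replicate 5 and no candidate in replicate 4. Over all 87 that did not pass the median was 38.2, beside 38.6 for the 5577 protein-coding genes that did not pass.

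The replicates placed the same genes at the top, apart from nhr-35. The genes that passed were the highest of the pooled list, so for them this follows in part from how they were chosen. In replicate 4, 97 nhr genes had a candidate and 6 of them were among its 1030 highest summits, as many as passed IDR, beside 8.57% of the protein-coding genes with a candidate there. In replicate 5, 90 had a candidate and 5 were among the highest, beside 9.17%. The 6 in replicate 4 were those that passed IDR, and the 5 in replicate 5 were the same genes without nhr-35. Of the 93 nhr genes with a pooled candidate, 48 had one in both replicates (51.6%, beside 59.8% of protein-coding genes), 15 in replicate 4 only, 25 in replicate 5 only and 5 in neither.

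Across the 48 nhr genes with all heights, Pearson's r between the log2 heights of the replicates was 0.71 and Spearman's rho was 0.50. Over 3691 protein-coding genes they were 0.71 and 0.58. These are descriptions across genes, which share the libraries and are not independent replicates. Without the 6 that passed IDR, rho was 0.25 over 42 nhr genes, beside 0.34 over 3103 protein-coding genes, so the order of the lower nhr heights was only loosely shared between the replicates. The summits of the replicates lay a median of 83 bp apart at nhr genes and 104 bp at protein-coding genes, and within 50 bp at 19 of 48 nhr genes (39.6%), beside 33.2%. At the 6 that passed they were at most 45 bp apart. Over the 588 protein-coding genes that passed with a candidate in all lists, a far larger group, the distance reached 796 bp.

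**Figure D3:**
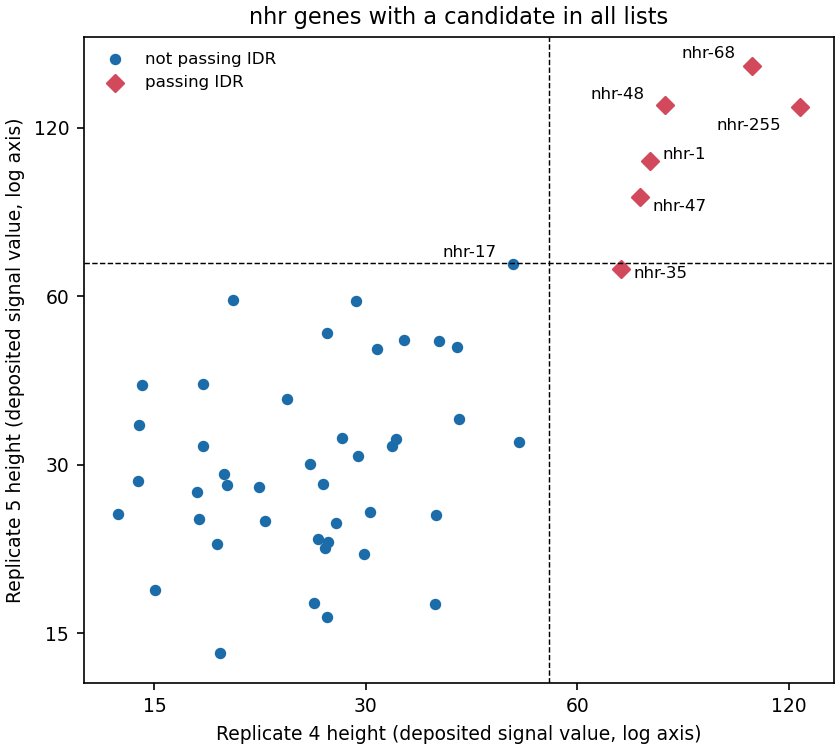
Height of the highest summit in replicate 4 (x axis) and replicate 5 (y axis), both in deposited signal values on log axes, for the 48 nhr genes with a candidate in all lists. Dashed lines mark the lowest of the 1030 highest summits in each replicate (54.7 and 68.9), and 5 of the 6 genes that passed IDR lie above both, with nhr-35 just below the second.

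In the pooled list, summits of nhr genes lay closer to the gene start than those of protein-coding genes at large, but not in both replicates. The pooled median position was 190 bp upstream (quartiles −515 and 51) for 93 nhr genes and 266 bp upstream (quartiles −584.5 and −54) for 6175 protein-coding genes. In replicate 4 the nhr median lay farther out, at 292 bp upstream, beside 277 bp, and in replicate 5 nearer, at 235.5 bp, beside 274 bp. The summit was upstream of the start at 64 nhr genes in the pooled list (68.8%), beside 80.7%, and the share was also lower in replicate 4 (70.1%, beside 80.4%) and in replicate 5 (78.9%, beside 82.3%). A larger share of the nhr summits thus lay inside the gene in every list, but in replicate 5 (71 of 90 upstream) the share was near that of all genes. The pooled list is called on both replicates, so the lists are not independent, and these shares carry no interval. The shift of the median depended on the list. In the pooled list, the first 100 bp downstream of the start held 17.2% of the nhr summits, beside 10.3% (639 genes) of all, and the next 100 bp held 14.0%, beside 8.97%. The 6 that passed IDR did not share this, since all 6 were upstream, at a median of 403.5 bp, and 92.3% of all protein-coding genes that passed were upstream.

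**Figure D4:**
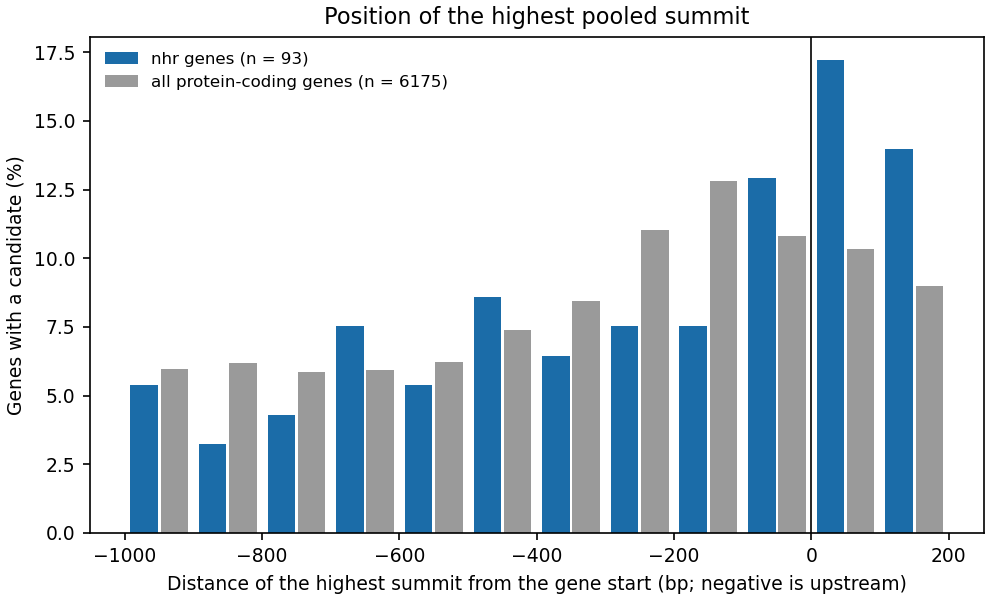
Share of genes with a candidate (y axis, %) by the distance of the highest pooled summit from the gene start (x axis, bins of 100 bp, upstream negative), for 93 nhr genes and 6175 protein-coding genes. In the 2 bins downstream of the start the nhr bars (17.2 and 14.0%) stand above those of all protein-coding genes.

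Regions that passed IDR were also found inside nhr genes, beyond the promoter window. There were 6 such nhr genes (2.23%), beside 1.18% of all protein-coding genes, and each had 1 region, in an intron, that overlapped a candidate in both replicates. The highest was in nhr-17, 2649 bp from the start on X, with a height of 245.5 in the pooled data, 119 in replicate 4 and 129 in replicate 5. In nhr-3, also on X, the summit 1908 bp from the start had 198, with 79.7 in replicate 4 and 125 in replicate 5. In nhr-19, on II, the summit at 1886 bp had 167, with 98.0 in replicate 4 and 71.5 in replicate 5. nhr-17, nhr-3 and nhr-40 (described below) are among the 10 highest promoters that did not pass. For them the region that passed lay in the gene and a lower one lay in the promoter window.

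The other 3 were lower. In nhr-40, on X, the summit 4936 bp from the start had 130.0, with 41.6 in replicate 4 and 88.4 in replicate 5, and lay in the window of another annotated transcript start of the gene. In nhr-48 the summit at 1519 bp had 117, with 34.1 in replicate 4 and 85.5 in replicate 5, so nhr-48 was the only nhr gene with a region in the window and in the body. In nhr-70, on V, the summit at 2744 bp had 115, with 53.8 in replicate 4 and 74.5 in replicate 5. Counting window or body, 11 nhr genes had a region (4.09%), beside 4.07% of all protein-coding genes, and 7 of the 11 were on X. The share of all protein-coding genes on X with such a region is not given here. In the window, protein-coding genes on X had a candidate more often than those on V (42.3%, beside 26.0%). The median length of an nhr gene was 2309 bp, beside 2027 bp for all protein-coding genes.

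Sequences of 2 of these introns are shown because they hold other annotated or repeated sequence, a tRNA gene in nhr-17 and a tandem repeat in nhr-70. Each is 201 bases of ce11 around the summit on the strand of the receptor gene, reverse for nhr-17 and forward for nhr-70, and capitals in nhr-17 mark the part of a tyrosine tRNA gene that lies on the other strand.
nhr-17 intron, chrX:12665105-12665305: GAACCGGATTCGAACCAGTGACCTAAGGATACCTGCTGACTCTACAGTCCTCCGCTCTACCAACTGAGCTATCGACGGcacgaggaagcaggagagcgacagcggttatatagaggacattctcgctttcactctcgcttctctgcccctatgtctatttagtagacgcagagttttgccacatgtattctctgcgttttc
nhr-70 intron, chrV:18619231-18619431: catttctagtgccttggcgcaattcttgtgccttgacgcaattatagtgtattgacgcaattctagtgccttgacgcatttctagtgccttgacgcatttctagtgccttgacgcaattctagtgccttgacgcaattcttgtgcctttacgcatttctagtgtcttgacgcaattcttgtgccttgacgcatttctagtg
The nhr-17 summit lay 23 bp from the tRNA-Tyr gene C02B4.t2 (12665228 to 12665311) and 19 bp from the non-coding RNA gene C02B4.8. The nhr-70 stretch is a tandem repeat with a period of 19 bases, in which 87.4% of the bases match the base 1 period on. No capitals occur in it because it holds no GAGAGA. The part of the tRNA gene and of the repeat in these 2 results was not tested.

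A set of 6 motifs was sought on both strands around the highest summit of each nhr gene, and a match is a description of letters only. Within 50 bp, GAGAGA was present at 17 of 93 nhr genes (18.3%), beside 13.1% of protein-coding genes with a candidate. Among genes that passed IDR it was present at 3 of 6 nhr genes (nhr-68, nhr-1 and nhr-48), beside 22.9% of all. Within 100 bp it was present at 30 of 93 (32.3%), beside 22.7%, and at 5 of 6, beside 39.0%, with nhr-255 the exception. The GAGA-type repeat was thus the most frequent of the 6 motifs at nhr summits. It was also the most frequent over all protein-coding genes with a candidate, with TGATAA next at 8.55% within 50 bp. With 6 genes the share that passed carries little weight.

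AGGTCA, the core to which many nuclear receptors bind, was present within 50 bp at 2 of 93 nhr genes (nhr-129 and nhr-139, 2.15%), beside 2.88%, and at none of the 6 that passed, which allows a share of up to 50%. Its variant AGTTCA was present at 5 (5.38%), beside 4.71%. The E-box CACGTG was present at 4 (4.30%), beside 2.87%, and the GATA site TGATAA at 11 (11.8%), beside 8.55%. The heat shock element core TTCTAGAA was present at 0 of 93, which allows a share of up to 3.23%, beside 0.632%. Of the 6 that passed, only nhr-68 had AGTTCA, the E-box or the GATA site within 50 bp, and it had all of them as well as GAGAGA.

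Receptors of classes shared with flies and vertebrates make up 9 nhr genes. Of these, 4 had a candidate, beside 30.9% of all protein-coding genes, and only nhr-48 passed IDR, beside 2.99%. With lists this short, such shares are read as descriptions only. nhr-25, the counterpart of SF-1 and FTZ-F1, had 38.2, with 34.3 in replicate 5 and no candidate in replicate 4. nhr-41, of the TR2 and TR4 class, had 30.9, and nhr-85, of the Rev-erb class, had 30.9. The other 5 had no pooled candidate: nhr-23 (ROR class), nhr-67 (tailless class), nhr-6 (NR4A class), nhr-8 (of the class of nhr-48) and nhr-91 (GCNF class). The median of the 4 was 34.6, below the 41.2 of all protein-coding genes with a candidate.

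Receptors with a known part in metabolism make up 11 nhr genes. Of these, 7 had a candidate (beside 30.9% of all protein-coding genes), with a median of 54.6, and only nhr-68 passed (beside 2.99%). nhr-49 had 81.4 and nhr-80, its partner in the control of fatty acid desaturation, had 54.6. nhr-114, which controls the methionine cycle when vitamin B12 is low, had 73.2, with 40.7 in replicate 4 and 36.3 in replicate 5. nhr-13, nhr-86 and nhr-28 had 33.1, 32.4 and 26.8 in that order. nhr-10, which acts with nhr-68, had no candidate in any list, and neither had nhr-31 or nhr-62, while nhr-66 had one of 17.4 in replicate 4 only.

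Of 5 nuclear receptors with names other than nhr, none had a pooled candidate in the window, which with 5 genes allows a share of up to 60%. They were daf-12, unc-55, sex-1, odr-7 and fax-1. daf-12, the steroid receptor that controls dauer formation, had a region that passed IDR in an intron on X, 1671 bp from the start, with a pooled height of 170.2, 76.8 in replicate 4 and 103 in replicate 5.

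Among genes that work with the receptors, 2 of the 4 coregulators had the highest summits. cbp-1, the p300 and CBP acetyltransferase, had a pooled height of 399, 191 in replicate 4 and 208 in replicate 5, at 880 bp upstream. din-1, the corepressor of DAF-12, had 210.0, with 81.2 in replicate 4 and 133 in replicate 5, at 746 bp upstream, and a further region of 181 in an intron. mdt-15, the Mediator subunit that binds NHR-49, had 38.3 and did not pass, and gei-8, the NCoR-like corepressor, had no candidate. Of these 4 genes 3 had a candidate, beside 30.9% of all protein-coding genes, and 2 passed IDR, beside 2.99%. Both summits that passed lay more than 500 bp upstream, and with a window from 500 bp upstream to 100 bp downstream neither gene passed. Only cbp-1 stood above every nhr gene.

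Genes of ligand synthesis and transport were examined next. Of daf-9, daf-36, hsd-1, dhs-16, strm-1, emb-8, ncr-1 and ncr-2, 8 genes of steroid hormone synthesis and sterol transport, only emb-8, a cytochrome P450 reductase, had a candidate (53.6), beside 30.9% of all protein-coding genes, and none passed, beside 2.99%.

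Genes of propionate breakdown, the methionine cycle and fatty acid metabolism were examined, some of them known targets of the metabolic receptors. Of 9 genes of propionate breakdown and the methionine cycle, 8 had a candidate, beside 30.9% of all protein-coding genes, with a median of 65.1. Passing IDR was seen at 2.99% of all protein-coding genes, and here only alh-8, a dehydrogenase of the propionate route, passed, with a pooled height of 132, 73.1 in replicate 4 and 68.2 in replicate 5, at 222 bp upstream. sams-1, the S-adenosylmethionine synthetase, had 81.4, hach-1 had 72.4 and metr-1, the methionine synthase, had 71.9. mmcm-1, pcca-1, hphd-1 and pccb-1 had between 27.5 and 58.2, and acdh-1, the first enzyme of the propionate route under NHR-10 and NHR-68, had none in the pooled list and 23.9 in replicate 5. Of 7 genes of fatty acid metabolism, 5 had a candidate (beside 30.9%), with a median of 39.3, and none passed in the window (beside 2.99%). acs-2, an acyl-CoA synthetase controlled by NHR-49, came closest with 105.0, with 38.5 in replicate 4 and 67.5 in replicate 5. hacd-1, fat-6, icl-1 and fat-5 had between 30.1 and 41.03, and icl-1, the glyoxylate cycle enzyme, had a region of 139 in a coding exon 284 bp from its start.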

How the data were processed

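ChIP-seq regions of GEI-17 came from 4 deposited lists in build ce11, per the labels: candidates of replicate 4, of replicate 5 and of both pooled, and the summits that passed IDR. Per the listings deposited beside the samples, candidates were called against a control alignment. The caller, its version and filters, the IDR threshold and the library sizes were not given in the sources used here. Each height is the signal score that the authors deposited with each summit. In the pooled list, passing IDR amounted to being among the 1030 highest summits. Genes came from Ensembl release 115 (WBcel235), sequence from the RefSeq assembly of that build. For each gene the highest summit from 1000 bp upstream to 200 bp downstream of its start was taken. A gene body region is a summit that passed IDR inside a gene beyond that window. Members, lists, motifs and named genes (members passing IDR, the next 10, list members, the highest per chromosome) were chosen with earlier results of these data known. No test was made, since there was 1 group. The assignment was tested on simulated summits. Alternatives were other windows, starts, thresholds, neighbour rules and single replicates. Python 3.11.15 was used with scipy 1.17.1, pandas 2.3.3, numpy 2.4.6 and matplotlib 3.10.9. The sequence at nhr-35 is not reported here.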

Additional observations from a re-analysis of the deposited data

How the results depend on the processing

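With a narrower window (500 bp upstream to 100 bp downstream), 4 nhr genes passed IDR, 2 of them on X, and the receptor lists held 1 and the pathway lists 1, beside 6, 4, 2 and 3 in the window reported. The protein-coding genes that passed fell from 598 to 447. The pathway gene kept was alh-8, and no coregulator passed. With the 2060 highest pooled summits in place of 1030, a cut by height alone, 11 nhr genes were called, 9 of them with the nearest start. The pathway lists held 5, and the protein-coding genes called rose from 598 to 1070. nhr-17, nhr-69, nhr-119, nhr-142 and nhr-49 were the 5 added. With only the nearest start counted, nhr-68 was lost, the receptor lists held 1, and 468 of all protein-coding genes passed. With 2000 bp upstream, the median position moved to −610.5 bp (all protein-coding genes at 637 bp upstream), and nhr-14 and nhr-86 were added to make 8. Of all protein-coding genes 815 then passed. With the higher 515 summits nhr-35 was lost, which left 5 nhr genes, beside 313 of all protein-coding genes. Without either replicate, 5 to 6 nhr genes were among the highest, beside 559 to 560 of all protein-coding genes, and nhr-35 was lost without replicate 4. Leaving out nhr-68 and nhr-255, whose summits lie nearer another start or a tRNA gene, an alternative chosen after seeing the data, left 4. Gene body regions, also after seeing the data, were found at 3 nhr genes with the higher 515 summits and at 11 with 2060. The same counts over all protein-coding genes were not made, so no change particular to nhr genes can be read from these. Within 100 bp in place of 50 bp, AGGTCA was present at 4 nhr genes (4.3%), beside 5.6% of protein-coding genes with a candidate. AGTTCA was present at 12 (12.9%, beside 9.99%) and GAGAGA at 30 (32.3%, beside 22.7%). TTCTAGAA was present at 1 (1.08%, beside 1.41%) and TGATAA at 20 (21.5%, beside 16.2%). Over all protein-coding genes with a candidate, each of these shares was also higher than within 50 bp. The rise was thus not particular to nhr genes. In all, 58 values were taken as unmoved, some of them named above. Counts among them moved by at most 1.5 times, and medians stayed within the 95% interval of the median over genes. Spearman's rho between the replicates stayed within its own 95% interval. Among the 58, the median percentile of nhr heights was 51.4 without replicate 4 and 48.9 without replicate 5, beside 46.8. The median position was −235.5 bp without replicate 4 and −292 bp without replicate 5, and in the second case nhr summits lay farther out than those of protein-coding genes (277 bp upstream), not nearer. No paired analysis was possible because there was 1 group. The depth of the libraries is not known here, so heights carry no interval, and a region absent from a list was not among its 30000 summits.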
